A study of Mus musculus with 7 samples.

Results

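Nos2, Ass1, Slc7a2, Arg2, Gch1, Acod1, Odc1, Sat1, Oaz1 and Azin1 encode proteins of arginine, itaconate and polyamine metabolism, or their regulators. Among the routes concerned are those from arginine to nitric oxide, from aconitate to itaconate and from ornithine to polyamines. These 10 genes were taken by their symbols from the 57865 gene symbols found in either of the 2 deposited expression tables. They were chosen with earlier results of these data known, so the shares of all genes given beside their counts are a description. Each of the 10 was listed in both tables and passed the filter on low values in both. The cells were bone marrow-derived macrophages (BMDMs), which are grown out of marrow precursors with macrophage colony-stimulating factor (M-CSF), here at 20 ng per mL and from C57BL/6 mice of WT (wild-type) genotype. In the LPS experiment, WT BMDMs were left without treatment (0 h) or received lipopolysaccharide (LPS), a bacterial cell wall component, at 100 ng per mL for 2 h or 4 h, and each time point was 1 library. In the AAV experiment, cells spent 48 h with an adeno-associated virus (AAV) encoding either green fluorescent protein (AAV-GFP, the control) or Shisa3 (AAV-Shisa3). The labels of these samples name no LPS and give the genotype as WT for AAV-GFP and as Shisa3 overexpression for AAV-Shisa3, and each group had 2 samples. Both vectors used the CAG promoter, which is active in most cell types, and every AAV sample had therefore been exposed to virus. The sources do not say whether samples of a group came from separate cultures or mice, so p-values measure only the spread between these samples, which may be technical.

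Arginine enters macrophages through cationic amino acid transporters and is either oxidised by inducible nitric oxide synthase (Nos2) to nitric oxide and citrulline or hydrolysed by arginase to ornithine and urea. Nitric oxide synthase needs tetrahydrobiopterin as a cofactor, and citrulline can be returned to arginine through argininosuccinate. Ornithine is the substrate of ornithine decarboxylase (Odc1), whose product putrescine is extended to spermidine and spermine, while itaconate is drawn from the tricarboxylic acid (TCA) cycle and is one of the most abundant metabolites of LPS-stimulated macrophages.

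The LPS libraries held between 7263258 reads (2 h) and 32659392 reads (4 h), with 15588502 reads at 0 h. LPS levels are given as reads per 1000000 reads of the library (RPM). The AAV values are in TPM, a share of the library corrected for transcript length, and the depth behind them is unknown. All 10 macrophage markers examined (Csf1r, Adgre1, Cd68, Lyz2 and others) passed the filter in both tables, and together they made up 35462 to 39070 TPM in the AAV samples, of which Lyz2 took 26378 to 29528 TPM. Of these markers 1 was called, Cd14, the LPS co-receptor, at 734.8 and 711.71 TPM with AAV-GFP and at 1199.14 and 1281.86 TPM with AAV-Shisa3 (log2 difference 0.78, limma adjusted p = 0.0153). The 7 lymphocyte markers summed to 0.23 to 0.65 TPM, with 2 at 0 in every AAV sample, the 6 dendritic cell markers to 2.70 to 4.53 TPM and the 7 fibroblast markers to 10.3 to 17.5 TPM. In bulk RNA, fewer cells of a type and less RNA per cell cannot be told apart. Shisa3 itself was at 7.88 and 10.85 TPM with AAV-GFP and at 12.31 and 17.81 TPM with AAV-Shisa3, and its log2 difference of 0.63 did not pass the test (limma adjusted p = 0.138).

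The promoters of Acod1, Gch1 and Odc1 are shown because these are the 3 genes that were both at least 2-fold higher after LPS and higher with AAV-Shisa3 at an adjusted p under 0.05. Each sequence is the 250 bases before the RefSeq start site on GRCm38.p6, 5′ to 3′ on the strand of the gene, and capitals mark matches to the motifs named in the next paragraph. The Acod1 window is chr14:103046762-103047011 on the plus strand, the Gch1 window chr14:47189414-47189663 on the minus strand, and the Odc1 window chr12:17544623-17544872 on the plus strand. The Acod1 and Odc1 windows run past the gene starts of the GENCODE annotation (103046977 and 17544794), so they partly lie inside those genes.
Acod1: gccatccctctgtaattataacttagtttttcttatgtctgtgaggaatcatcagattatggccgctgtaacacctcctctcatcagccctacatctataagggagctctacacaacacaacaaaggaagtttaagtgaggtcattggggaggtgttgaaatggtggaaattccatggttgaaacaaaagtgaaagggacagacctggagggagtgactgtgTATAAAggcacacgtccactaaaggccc
Gch1: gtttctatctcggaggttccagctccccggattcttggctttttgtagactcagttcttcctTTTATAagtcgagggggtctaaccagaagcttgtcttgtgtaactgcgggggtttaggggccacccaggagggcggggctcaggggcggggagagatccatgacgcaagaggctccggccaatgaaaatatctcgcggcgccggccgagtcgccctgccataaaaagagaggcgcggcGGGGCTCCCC
Odc1: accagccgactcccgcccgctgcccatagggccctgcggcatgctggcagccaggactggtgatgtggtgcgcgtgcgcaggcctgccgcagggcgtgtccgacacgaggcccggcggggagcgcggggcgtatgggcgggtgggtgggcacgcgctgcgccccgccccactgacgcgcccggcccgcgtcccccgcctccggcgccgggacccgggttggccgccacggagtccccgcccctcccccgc

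Of the 10 genes, 6 had a promoter among the 32851 of the RefSeq table (Acod1, Ass1, Gch1, Oaz1, Odc1 and Sat1). Both strands were searched for 7 motifs: the NF-κB motif, the interferon-stimulated response element, the interferon-γ-activated site (TTCNNNGAA), the AP-1 site (TGANTCA), the cyclic AMP response element (TGACGTCA), the E-box (CACGTG) and the TATA box (TATAAA). In Acod1 the TATA box began 28 bases before the start and no other motif matched. In Gch1 an NF-κB match, GGGGCTCCCC, took the last 10 bases before the start, and a TATA match lay on the other strand, so that it reads TTTATA as printed, 188 bases before the start. Odc1 had no match, and its window was 80.0% G and C, against 44.4% in Acod1, 59.2% in Gch1 and a median of 52.4% over all promoters. Oaz1 also held an NF-κB match and Ass1 held an E-box. No matches overlapped in the 3 printed windows. Of all promoters of this length, 7.25% held the NF-κB motif, 12.4% the TATA box and 6.02% the E-box, so a match is a description of these letters and does not show a bound site.

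The LPS libraries address how the genes changed in the first hours of stimulation. Of the 10 genes, 8 were at least 2-fold higher at 2 h than at 0 h and none was 2-fold lower. Over the 17854 genes kept, 20.5% were at least 2-fold higher and 24.7% at least 2-fold lower at that time. At 4 h the same 8 genes were at least 2-fold higher (background 22.2%) and none was 2-fold lower (background 23.6%). The 8 were Nos2, Ass1, Slc7a2, Arg2, Gch1, Acod1, Odc1 and Azin1, and the 2 others, Sat1 and Oaz1, encode the enzyme that acetylates polyamines and an inhibitor of Odc1. Between 2 h and 4 h, Nos2, Ass1 and Slc7a2 were a further 2-fold or more higher (background 17.9%), and Odc1 was 2-fold lower (background 15.2%). None of these differences has a replicate check, as each time point was 1 library, and intervals below cover counting error only. Differences are on the scale of log2(value + 1) of the authors' scaled counts, where the median of all genes was -0.05 at 2 h and -0.04 at 4 h. With reads scaled to equal library totals that median was -0.68 and -0.81, and the library-total values given for single genes should be read against it. The split of all genes into higher and lower also depended on the scaling: at 4 h it was 3958 and 4207 in the authors' values, 2335 and 7845 with library totals and 5285 and 3036 with centred libraries.

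Markers of other cell types also differed between the LPS libraries, and their counts stand against the same shares of all genes. Of the 10 neutrophil markers, 5 were at least 2-fold higher and 1 lower at 2 h (median 0.85), and 1 higher and 2 lower at 4 h (median -0.45), while with library totals 2 were higher and 1 lower at 2 h and 1 higher and 5 lower at 4 h. They summed to 521, 778 and 834 RPM at 0, 2 and 4 h, of which Csf3r took 127, 273 and 511 RPM. Of the 6 dendritic cell markers, 4 were higher and 2 lower at 2 h (median 1.18), and 2 higher and 1 lower at 4 h (median 0.37), while with library totals 1 was higher and 2 lower at either time. They summed to 5.84, 10.1 and 17.5 RPM, of which Ccr7 took 1.28, 3.99 and 14.8 RPM. Of the 7 fibroblast markers, 2 were higher and 0 lower at either time. With library totals 1 was higher and 2 lower at 2 h, and 1 higher and 0 lower at 4 h. Fibroblast markers summed to 47.7 to 59.6 RPM and lymphocyte markers to 0.123 to 0.551 RPM. The 10 macrophage markers summed to 33678, 23516 and 19032 RPM at 0, 2 and 4 h. Of these, 2 were higher and 0 lower at either time, or 2 and 2 at 2 h and 2 and 3 at 4 h with library totals. The part of these markers in the LPS values was not tested.

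**Figure D1:**
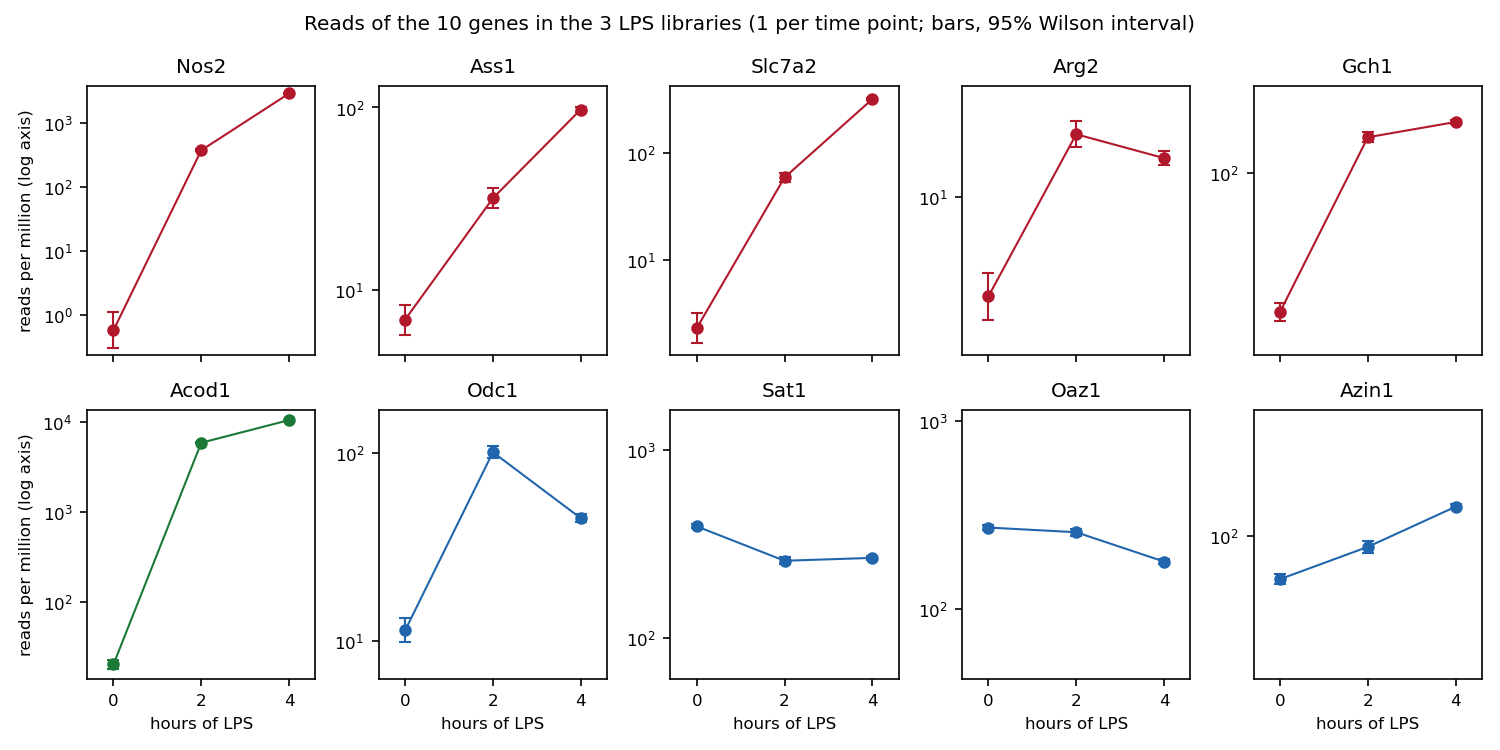
RPM (log axes that differ between panels) of the 10 genes against hours of LPS, with 1 library per time point and 95% Wilson intervals as bars. Nos2, Ass1, Slc7a2, Gch1, Acod1 and Azin1 were highest at 4 h and Arg2 and Odc1 at 2 h. Sat1 and Oaz1 were lower at 2 h and 4 h than at 0 h on this scale, while they were higher in the authors' scaled counts.

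Nos2 (chr11:78920787-78960254 of GRCm38, plus strand) makes nitric oxide. It had 9, 2724 and 94656 reads at 0, 2 and 4 h. The levels were 0.577 RPM (95% Wilson interval 0.304 to 1.10), 375 RPM (361 to 389) and 2898 RPM (2880 to 2917), so the 3 intervals were far apart. In the authors' values Nos2 was 1027.5-fold higher at 2 h (counting interval 534 to 1977) and 8885-fold higher at 4 h (4623 to 17076), and the width of both intervals comes from the 9 reads at 0 h. The log2 differences were 9.78 and 12.89, or 9.18 and 12.13 with library totals. Among the 17854 genes Nos2 had the largest positive log2 difference at both times, and it ranked 7 at 2 h with a pseudocount of 0.1.

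Slc7a2 (chr8:40862396-40922308, plus strand), a cationic amino acid transporter that brings arginine into the cell, had 36, 430 and 10466 reads, or 2.31, 59.2 and 320.5 RPM at 0, 2 and 4 h. In the authors' values the folds over 0 h were 40.6 and 246, and most of the rise in level came after 2 h. Ass1 (chr2:31470207-31520672, plus strand), which makes argininosuccinate in the recycling of citrulline to arginine, had 107, 231 and 3183 reads, or 6.86, 31.8 and 97.5 RPM. It was 7.33-fold and 25.1-fold higher, with log2 differences of 2.86 and 4.63. The steps of Nos2, Slc7a2 and Ass1 from 2 h to 4 h were 3.11, 2.60 and 1.78 on the log2 scale.

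Gch1 (chr14:47153895-47189413, minus strand) encodes GTP cyclohydrolase, the first enzyme of tetrahydrobiopterin synthesis. It had 18.3 RPM at 0 h, 155.7 at 2 h and 187.7 at 4 h, and in the authors' values it was 13.4-fold and 18.1-fold higher than at 0 h. Its step from 2 h to 4 h was 0.43 on the log2 scale, smaller than those of the 3 genes above. Arg2 (chr12:79130777-79156301, plus strand) encodes the mitochondrial arginase, which competes with Nos2 for arginine. It had 46, 156 and 524 reads, or 2.95, 21.5 and 16.0 RPM, and its log2 differences from 0 h were 3.48 and 3.22. Exons of Arg2 overlap those of Vti1b on the opposite strand, which had 827, 289 and 1227 reads, and because the counting is not stated to use strand, reads of the pair could not be told apart. Within each library there were 0.196, 17.5 and 180.6 reads of Nos2 for each read of Arg2 at 0, 2 and 4 h.

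Acod1 (chr14:103046977-103056573, plus strand) encodes aconitate decarboxylase, the enzyme that makes itaconate. It went from 319 reads to 42278 reads and 338598 reads, or 20.5, 5821 and 10368 RPM. This single gene took 0.00205% of all reads at 0 h, 0.582% at 2 h and 1.04% at 4 h, while the 10 genes together took 0.0787%, 0.717% and 1.45%. Acod1 was 449.9-fold higher at 2 h (counting interval 403 to 502) and 897-fold higher at 4 h (803 to 1001), and its log2 difference ranked 9 and 7 among all genes, or 26 and 25 with a pseudocount of 0.1. The step from 2 h to 4 h was 0.99 on the log2 scale, smaller than the steps of Nos2, Slc7a2 and Ass1, and it passed the 2-fold limit with TMM factors (1.005) or centred libraries (1.05). For each read of Nos2 there were 35.4 reads of Acod1 at 0 h, 15.5 at 2 h and 3.58 at 4 h.

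Odc1 (chr12:17544794-17551505, plus strand) encodes the enzyme that makes putrescine, and it was the gene of the 10 with the clearest peak at 2 h. It had 177, 731 and 1466 reads, or 11.3 (9.80 to 13.2), 100.6 (93.6 to 108) and 44.9 (42.7 to 47.2) RPM. The log2 difference from 0 h was 3.80 at 2 h and 2.80 at 4 h, so that the value at 4 h was 0.499 of that at 2 h (counting interval 0.457 to 0.545). The log2 step of -1.002 lay at the 2-fold limit, and with a pseudocount of 5, TMM factors or centred libraries it fell just inside it (-0.998, -0.991 and -0.94).

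Azin1 (chr15:38487427-38519266, minus strand) encodes antizyme inhibitor, a relative of Odc1 with no decarboxylase activity of its own that releases Odc1 from antizyme. It had 922, 638 and 4691 reads, or 59.1, 87.8 and 143.6 RPM, so that each time point was above the one before. It was 2.35-fold higher at 2 h and 4.30-fold higher at 4 h, but 1.49-fold and 2.43-fold with library totals, so the call at 2 h depended on the scaling. Oaz1 (chr10:80826656-80829290, plus strand) encodes antizyme, which binds Odc1 and directs it to the proteasome. It had 272, 257 and 179 RPM, and its log2 differences of 0.58 and 0.22 in the authors' values turned to -0.08 and -0.60 with library totals. Reads of Oaz1 may be shared with its pseudogene Oaz1-ps, which had 267, 148 and 262 reads. Sat1 (chrX:155213132-155216449, minus strand), which encodes spermidine/spermine acetyltransferase, had 393, 258 and 267 RPM, with log2 differences of 0.05 and 0.27 in the authors' values that turned to -0.61 and -0.56 with library totals. No direction is given for Oaz1 or Sat1, as the sign depended on the scaling.

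Ratios within a library do not depend on the scaling. The reads of Odc1 per read of Oaz1, the gene of the enzyme against that of its inhibitor, were 0.0417 at 0 h, 0.392 at 2 h and 0.250 at 4 h. The reads of Azin1 per read of Oaz1 were 0.217, 0.342 and 0.801. Odc1 per Azin1 went from 0.192 to 1.15 and back to 0.313, so reads of Odc1 were highest against those of Azin1 at 2 h. Protein was not measured in these libraries.

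The other genes of these pathways were counted in the same way, against 20.5% of all genes higher and 24.7% lower at 2 h and 22.2% and 23.6% at 4 h in the authors' values. With library totals those shares were 13.7% and 39.9% at 2 h and 13.1% and 43.9% at 4 h. Of the 13 other arginine and nitric oxide genes kept, 2 were at least 2-fold higher and 2 lower at 2 h (1 and 4 with library totals), the lower pair being Arg1 and Slc7a3 with at most 5 reads at 0 h. The higher pair passed the limit at both times, Slc7a1 (log2 1.95 and 2.44), an arginine transporter, and Slc7a7 (1.20 and 1.38), the light chain of an exchanger of cationic and neutral amino acids. Slc7a7 was at 0.54 and 0.55 with library totals. At 4 h Nostrin (-1.66), which takes part in the trafficking of nitric oxide synthase, and Ddah2 (-1.14), of the family that degrades methylarginines, were among 4 genes of this list at least 2-fold lower (1 higher and 6 lower with library totals), and the median of the list was -0.06 at 2 h and 0.12 at 4 h. Arg1, the cytosolic arginase and a marker of alternatively activated macrophages, had 5, 0 and 2 reads, too few to compare. Nos1 had no read in any library, which allows up to 3 reads in each, and Nos3 had 4, 0 and 0 reads. None of the 6 tetrahydrobiopterin genes kept was 2-fold higher or lower at 2 h, and at 4 h only Gchfr, with 1, 1 and 6 reads, passed the limit (medians 0.29 and -0.24). With library totals 2 were lower at 2 h and 3 at 4 h. Gchfr and Slc7a3 were named after their values were seen.

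Of the 27 itaconate, aconitate and TCA cycle genes kept, none was at least 2-fold higher and 1 was lower at 2 h, Sugct with 11 and 1 reads, and 2 were higher and 1 lower at 4 h (medians 0.14 and 0.08). With library totals the counts were 0 higher and 5 lower at 2 h and 0 and 10 at 4 h. Idh1, the cytosolic isocitrate dehydrogenase, was lower, with 8087 reads at 0 h and 2730 reads in the deeper library at 4 h, a log2 difference of -1.81. Dld (1.51) and Idh3a (1.05), subunits of the ketoglutarate and isocitrate dehydrogenase complexes, were the higher pair, at 0.69 and 0.23 with library totals. Of the 18 other polyamine genes kept, 3 were at least 2-fold higher and 5 lower at 2 h, and 3 higher and 4 lower at 4 h (medians -0.12 and -0.27). With library totals they were 0 and 7 at 2 h and 0 and 10 at 4 h. Smox, which oxidises spermine, went the way of Odc1 with 576, 1754 and 819 in the authors' values, a log2 difference of 1.60 at 2 h that was 0.94, under the 2-fold limit, with library totals. Amd1, which makes decarboxylated S-adenosylmethionine, and Srm, spermidine synthase, were lower at 2 h (-1.50 and -1.26, from 49 and 12 reads). Paox, a polyamine oxidase, was lower at 4 h (-2.99), as was the lysosomal polyamine exporter Atp13a2 (-1.71), while Slc3a2 (1.48), a heavy chain of amino acid transporters, and Mat2a (1.23), which makes S-adenosylmethionine, were higher, although with library totals they stood at 0.65 and 0.40.

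AAV-Shisa3 transduced BMDMs were then compared with AAV-GFP transduced BMDMs. Odc1, Acod1 and Gch1 were higher and Azin1 was lower with AAV-Shisa3 at an adjusted p under 0.05 (limma's trended test on log2(TPM + 1), adjusted over the 11218 genes tested). Of all genes tested, 2.23% were called higher and 4.1% lower (250 and 460 genes, or 410 and 230 with each sample centred on its median). The 6 other genes did not pass the test. In 4 of the 10 genes both AAV-Shisa3 samples lay above both AAV-GFP samples (Nos2, Gch1, Acod1 and Odc1; background 18.2%) and in 2 both lay below (Arg2 and Azin1; background 41.2%). The median log2 difference was 0.25 over the 5 arginine and nitric oxide genes, 0.07 over the 4 polyamine genes and -0.10 over all genes tested. Centring each sample on its median, which brought the last to 0.01, kept the 4 calls. Limma without its trend, or without the filter on low values, kept none of them. With 2 samples against 2, the smallest p that an exact permutation test of 1 gene can give is 0.333, and the calls draw on a spread pooled over genes by limma.

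**Figure D2:**
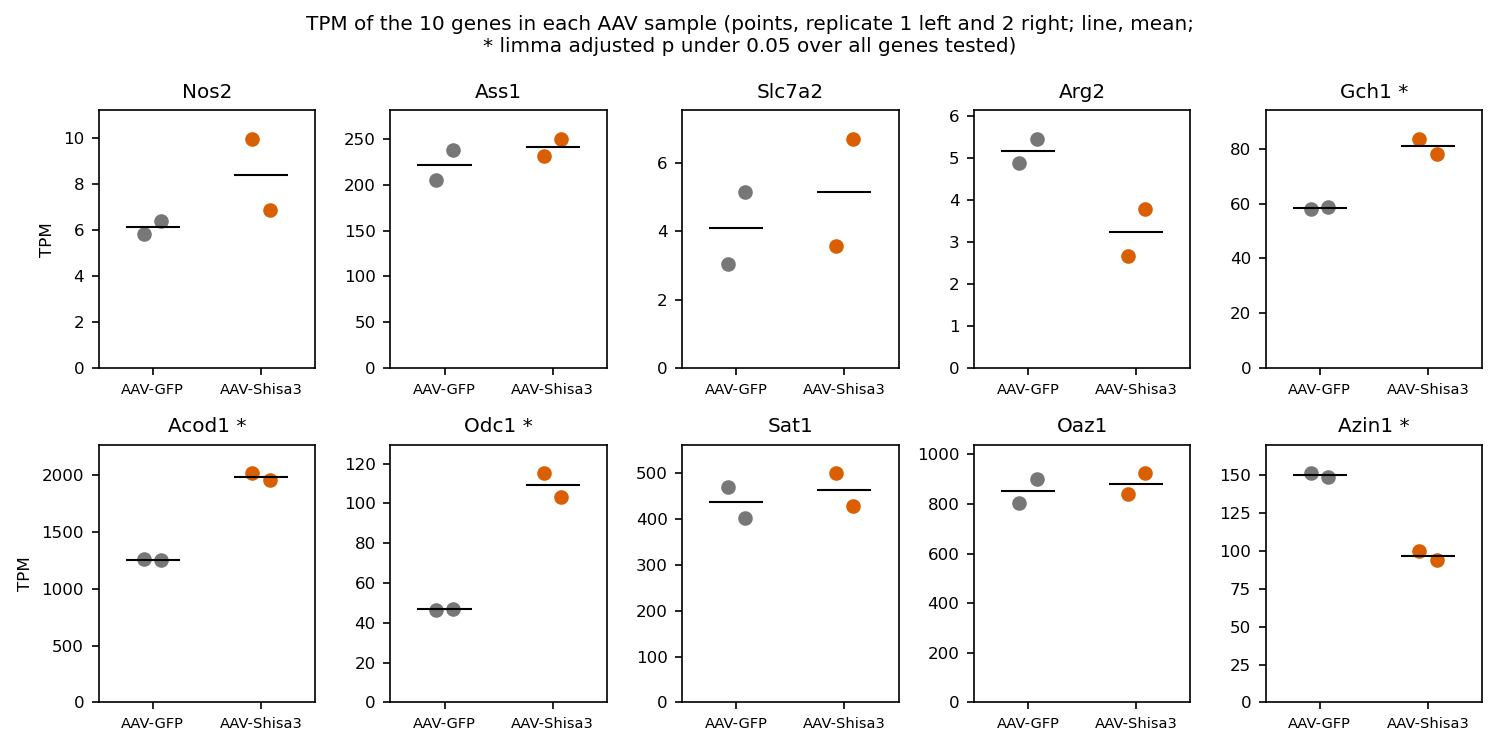
TPM of the 10 genes (linear axes from 0 that differ between panels) in each AAV-GFP and AAV-Shisa3 sample, with a line at the mean of the 2 samples of a group and an asterisk where limma's adjusted p was under 0.05. The groups lie apart with close replicates in Gch1, Acod1, Odc1 and Azin1, and overlap in Ass1, Slc7a2, Sat1 and Oaz1.

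Odc1 differed most. It was at 46.44 and 47.13 TPM in the 2 AAV-GFP samples, against 115.14 and 103.15 TPM in the 2 AAV-Shisa3 samples, so the samples of a group were close and the groups far apart. The log2 difference was 1.20 (SE 0.087, 95% interval 0.99 to 1.42, limma adjusted p = 0.0113), and Odc1 ranked 59 among the rises of the 11218 genes. Its relative Azin1 went the other way, from 151.28 and 148.76 TPM to 100.09 and 93.77 TPM, with a log2 difference of -0.63 (SE 0.075, 95% interval -0.81 to -0.44, limma adjusted p = 0.0203). The antizyme gene Oaz1 was at 805.27 and 902.16 TPM with AAV-GFP and at 841.66 and 924.09 TPM with AAV-Shisa3, and its difference of 0.05 (95% interval -0.17 to 0.27) did not pass the test. Sat1 was at 470.11 and 402.23 TPM against 499.64 and 428.04 TPM, a difference of 0.09 (-0.19 to 0.37), with overlapping groups. Within a sample, the TPM of Odc1 per TPM of Azin1 was 0.307 and 0.317 with AAV-GFP and 1.15 and 1.10 with AAV-Shisa3, so the order of the pair was turned. Odc1 per Oaz1 was 0.0577 and 0.0522 against 0.137 and 0.112.

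Acod1 had the highest TPM of the 10 genes in every AAV sample. It was at 1263.21 and 1247.92 TPM with AAV-GFP and at 2013.77 and 1954.71 TPM with AAV-Shisa3, which moved it from rank 119 among all genes in both AAV-GFP samples to ranks 62 and 66. The log2 difference was 0.66 (SE 0.067, 95% interval 0.49 to 0.82, limma adjusted p = 0.0174). Gch1 was at 58.07 and 58.91 TPM against 83.56 and 78.25 TPM, a log2 difference of 0.46 (SE 0.080, 95% interval 0.26 to 0.66, limma adjusted p = 0.0343).

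Nos2, in contrast to its rank under LPS, was low in all 4 AAV samples. It was at 5.81 and 6.40 TPM with AAV-GFP and at 9.94 and 6.85 TPM with AAV-Shisa3, so the 2 AAV-Shisa3 samples were further from each other than the lower of them was from the controls. Its log2 difference of 0.38 (SE 0.19, 95% interval -0.08 to 0.85) did not pass the test (limma adjusted p = 0.243). Arg2 was at 4.88 and 5.46 TPM against 2.68 and 3.79 TPM, without overlap, and its difference of -0.55 (95% interval -1.01 to -0.10) did not pass after adjustment (limma adjusted p = 0.126). Vti1b, whose exons overlap those of Arg2, was at 79.72 and 87.58 TPM against 73.36 and 76.01 TPM. The TPM of Nos2 per TPM of Arg2 was 1.19 and 1.17 with AAV-GFP and 3.71 and 1.81 with AAV-Shisa3.

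Ass1 was at 205.14 and 238.16 TPM against 231.67 and 250.06 TPM (log2 difference 0.12, 95% interval -0.12 to 0.36, limma adjusted p = 0.447). Slc7a2 was at 3.04 and 5.16 TPM against 3.58 and 6.71 TPM (0.25, -0.52 to 1.03, limma adjusted p = 0.633), and both groups overlapped. The interval of Slc7a2 is the widest of the 10.

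Leaving out either AAV-GFP sample ended all 4 calls, with adjusted p from 0.117 to 0.166 and nearly the same log2 differences. Without AAV-Shisa3 replicate 1 or 2, of the 4 only Odc1 passed (limma adjusted p = 0.0498 and 0.0301), and limma without its trend gave adjusted p of 0.0557 to 0.0818 for the 4 genes.

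Neutrophil markers were mostly higher in the AAV-Shisa3 samples. Of the 10 markers, 8 passed the filter, 7 of these had both AAV-Shisa3 samples above both AAV-GFP samples (18.2% of all genes tested), none had both below (41.2%), and the median log2 difference was 0.63. Only Camp, an antimicrobial peptide of neutrophil granules, passed the test (log2 difference 1.15, limma adjusted p = 0.0422). At limma's unadjusted p under 0.05, 3 of the 8 were higher and 0 lower, against 8.21% and 19.8% of all genes tested. The 10 markers summed to 634.5 and 620.4 TPM with AAV-GFP and to 1064 and 703 TPM with AAV-Shisa3. None was at 0 in all samples, while Ly6g was at 0.10 to 0.29 TPM and Cxcr2 at 0.14 to 0.24 TPM. AAV-Shisa3 replicate 1 was the sample with the highest neutrophil sum and the highest Nos2, Acod1, Gch1 and Odc1, and the part of the neutrophil markers in these results was not tested. Without it the log2 differences of Acod1, Gch1 and Odc1 were 0.64, 0.41 and 1.12, and that of Nos2 was 0.15 in place of 0.38. Of the 12 proliferation genes none was called by limma (2 higher at an unadjusted p under 0.05), 4 had both AAV-Shisa3 samples above and 0 had both below, and their median difference was 0.21.

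**Figure D3:**
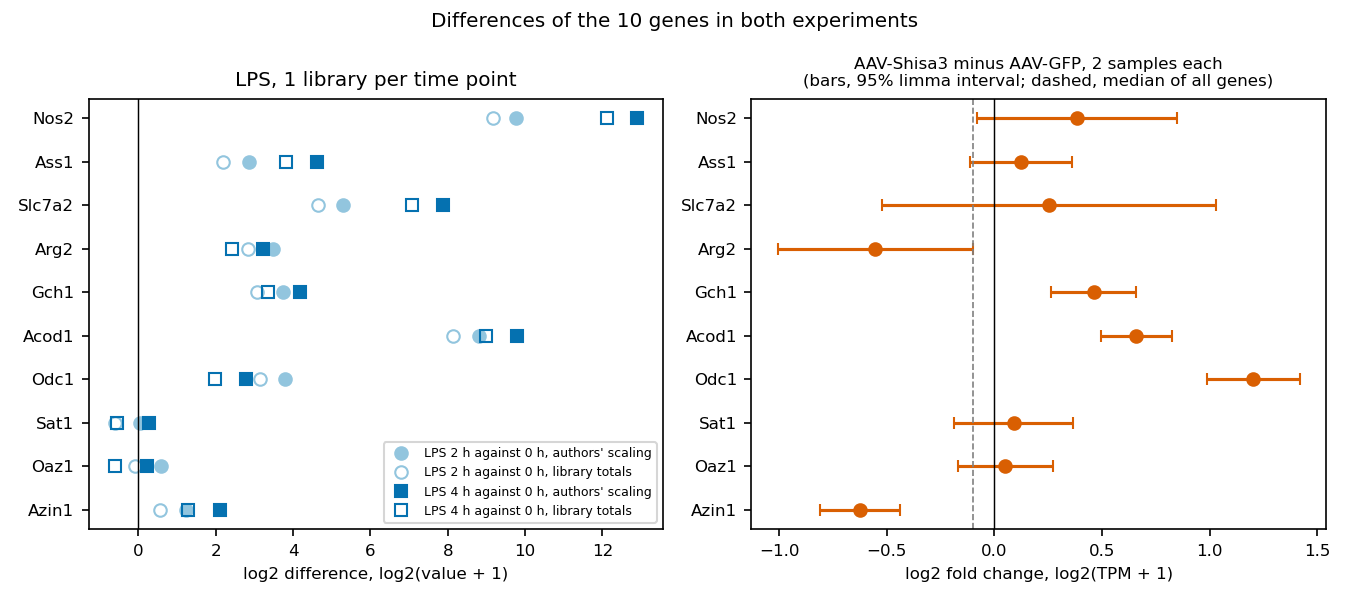
Log2 differences of the 10 genes, on the left for LPS at 2 h and 4 h against 0 h (filled for the authors' scaling, open for library totals), and on the right for AAV-Shisa3 minus AAV-GFP with limma's 95% intervals and a dashed line at the median of all genes. The left axis spans about 13 log2 units and the right axis under 3, with Nos2 and Acod1 far to the right under LPS and Odc1 furthest to the right with AAV-Shisa3.

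The 2 experiments were normalised separately and have no sample in common, so their differences are given side by side with no test. The 8 genes that were 2-fold higher after LPS divided in the AAV experiment. Odc1, Acod1 and Gch1 were called higher in the latter. These calls, and the call of Azin1 that follows, ended without limma's trend or without the filter on low values. Azin1, higher by 1.23 and 2.10 on the log2 scale after LPS, was called lower with AAV-Shisa3, at -0.63. Arg2, at 3.48 and 3.22 after LPS, was at -0.55, and Nos2, Slc7a2 and Ass1, with the largest steps from 2 h to 4 h, were at 0.38, 0.25 and 0.12, and none of these 4 passed the test.

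The order of levels by TPM in the AAV-GFP samples was Acod1, Oaz1, Sat1, Ass1, Azin1, Gch1, Odc1, Nos2, Arg2 and Slc7a2. Only Arg2 and Slc7a2, the last pair, overlapped between neighbours. With AAV-Shisa3 the order was Acod1, Oaz1, Sat1, Ass1, Odc1, Azin1, Gch1, Nos2, Slc7a2 and Arg2, again with an overlap only in the last pair, so that Odc1 had moved above Azin1 and Gch1.

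Of the 56 other pathway genes tested, 1 rose (1.79%) and 5 fell (8.93%) with AAV-Shisa3, against 2.23% and 4.1% of all genes tested. At an unadjusted p under 0.05, 8.21% of all genes tested were higher and 19.8% lower. All 6 of these calls ended on leaving out any of the 4 samples (limma adjusted p from 0.0585 to 0.210), without the trend (0.0557 to 0.0902) and without the filter on low values (0.105 to 0.157). Of the 20 other polyamine genes, 16 were tested, 1 rose and 2 fell by limma (2 and 6 at an unadjusted p under 0.05), and the median log2 difference was 0.03. Srm, which makes spermidine from the product of Odc1, rose, with 51.18 and 48.90 TPM against 68.00 and 69.54 TPM (log2 difference 0.45, limma adjusted p = 0.0350). Oaz2, a second antizyme, fell from 38.98 and 37.97 TPM to 27.82 and 24.89 TPM (-0.53, limma adjusted p = 0.0378). Atp13a2 fell from 195.70 and 196.99 TPM to 148.91 and 139.20 TPM (-0.44, limma adjusted p = 0.0319). With centred samples Srm kept its call, while Oaz2 and Atp13a2 had adjusted p of 0.0751 and 0.0741. Paox, lower after LPS, was at 7.78 and 6.62 TPM against 4.17 and 4.18 TPM (-0.66, limma adjusted p = 0.0546).

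Of the 16 other arginine and nitric oxide genes, 10 were tested, none rose and 1 fell by limma (1 and 3 at an unadjusted p under 0.05), with a median of -0.19. Slc7a7 fell from 82.74 and 73.71 TPM to 52.02 and 57.46 TPM (-0.51, limma adjusted p = 0.0433), the opposite side from its value after LPS, and with centred samples it did not pass (limma adjusted p = 0.0958). Arg1 varied more within the groups than between them, at 14.07 and 24.92 TPM against 12.36 and 28.94 TPM (0.02, limma adjusted p = 0.981). Nos1 was listed at 0 in every sample and Nos3 at 0 to 0.04 TPM. Of the 7 tetrahydrobiopterin genes, 4 were tested and none was called by limma (1 higher at an unadjusted p under 0.05; median 0.06), so Gch1 was the only gene called of the cofactor pathway among those tested.

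Of the 29 itaconate, aconitate and TCA cycle genes, 26 were tested, none rose and 2 fell by limma (0 and 4 at an unadjusted p under 0.05), with a median of -0.11, close to that of all genes. Slc25a10, the mitochondrial dicarboxylate carrier, fell from 182.69 and 189.70 TPM to 108.40 and 118.20 TPM (-0.71, limma adjusted p = 0.0179). Aco1, the cytosolic aconitase and iron regulatory protein, fell from 24.96 and 26.13 TPM to 17.89 and 18.68 TPM (-0.46, limma adjusted p = 0.0495), and with centred samples only Slc25a10 passed (limma adjusted p = 0.0233 against 0.0855 for Aco1).

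**Figure D4:**
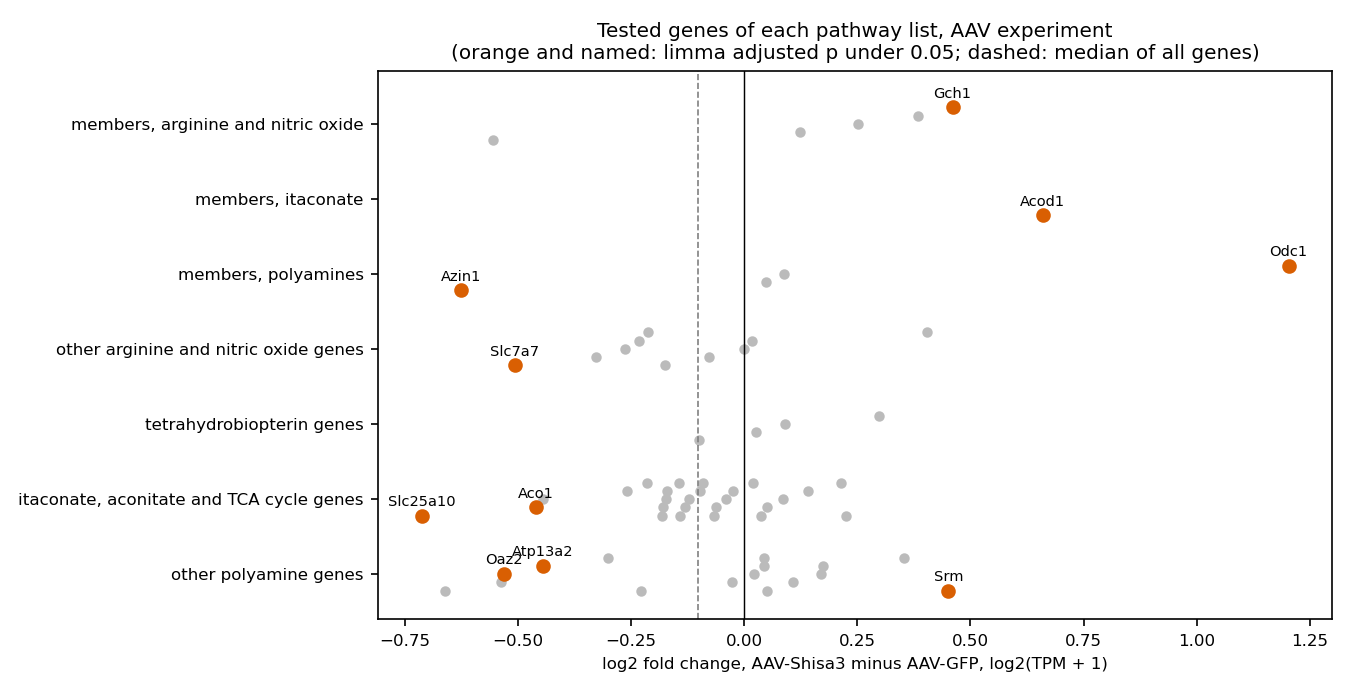
Log2 differences of AAV-Shisa3 minus AAV-GFP for each tested gene of the 10 and of the 4 lists of other pathway genes, with those at a limma adjusted p under 0.05 in orange and named, and a dashed line at the median of all genes. The first 3 rows hold the 10 genes. Odc1 and Acod1 stand furthest to the right, and of the other pathway genes 1 (Srm) is orange to the right of 0 and 5 to the left.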

How the data were processed

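RNA was sequenced from BMDMs in an LPS experiment (1 library at each of 0, 2 and 4 h) and an AAV experiment (2 samples per group), and groups followed the sample labels. For LPS the authors deposited a signal per gene, a read count over a library-wide factor. This was inferred from the values, of which 100% were whole multiples of 1 step (tolerance 0.01), and gave back the reads. RPM intervals are 95% Wilson intervals for counting error only, and reads are not independent molecules. For AAV the authors deposited values that sum to just under 1000000 per sample, read as TPM, which keep no depth. The submitters' processing notes name mm9, while 99.2% of LPS identifiers and 96.4% of AAV symbols matched GENCODE M21 (GRCm38), used for positions and lengths. The aligner and counter are not given in the sources used here. Columns of per-sample values left unused numbered 0.

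Genes with a mean of at least 1 were kept (17854 and 11218). LPS differences were taken on log2(value + 1) with a 2-fold limit and no test. AAV samples were compared with limma's trended test on log2(TPM + 1), which understates the change of low genes, adjusted by Benjamini-Hochberg at a threshold of 0.05. The fit was run on simulated data first. The members and the pathway and marker lists, written from general knowledge, were chosen with earlier results of these data known. Text names all 10 genes, list genes called in the AAV test, Arg1, Nos1 and Nos3, in each list up to 2 of the largest LPS rises and falls of at least 2-fold among genes with over 3 reads at 0 h, and the 5 genes nearest to Nos2, Acod1 and Odc1. Alternatives were other pseudocounts, filters, scalings (library totals, edgeR's TMM, centring), limma without the trend, a replicate block and leaving out each sample. Leaving genes at 0 in all samples out of the AAV fit without a filter was chosen after seeing the data. Protein sequences were not used here. R 4.3.3, limma 3.58.1, edgeR 4.0.16 and Python 3.11.15 were used.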

Additional observations from a re-analysis of the deposited data

How the results depend on the processing

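Depth limits the LPS values most at 0 h, where Nos2 had 9 reads, and at 2 h, the shallowest library, and 1 library per time point gives no replicate error. In the AAV test, genes called higher and lower went from 250 and 460 to 1 and 4 without the trend, to 410 and 230 with centred samples, to 0 and 0 with limma and no filter on low values (1118 and 2411 at an unadjusted p under 0.05), and to ranges of 0 to 32 and 0 to 10 on leaving out a sample. Of the 10 genes, 3 higher and 1 lower became 0 and 0 without the trend and without the filter (limma; at an unadjusted p under 0.05, 3 and 2 in the former and 3 and 1 in the latter), and ranged from 0 to 1 and stayed at 0 on leaving out a sample. The cause was not tested for the trend and the filter, while leaving out a sample leaves a group with 1 sample, assumed to vary like the other.

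The replicate numbers are shared between the AAV groups, but nothing in the labels says that they pair the samples, and the deviations of same-numbered samples correlated at 0.188 across genes with only 2 pairs. With the replicate block 424 genes were higher and 851 lower, and the calls of the 10 genes were the same 3 and 1.

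On leaving out a sample, 4 log2 differences that had not passed the test turned sign: Slc7a2 (-0.05 and -0.12, range -0.12 to 0.63), Sat1 (-0.024 and -0.023, up to 0.20), Oaz1 (-0.033 and -0.018, up to 0.13) and Arg1 (-0.37 and -0.57, up to 0.60). For LPS, library totals changed the genes 2-fold higher and lower from 3668 and 4406 to 2438 and 7117 at 2 h, and from 3958 and 4207 to 2335 and 7845 at 4 h. Between 2 h and 4 h, 3197 higher became 1830 with a pseudocount of 5 and 2110 with a mean of at least 5, and 2710 lower became 1551 with a pseudocount of 5. Of the 10 genes, 1 (Odc1) was 2-fold lower there, and 0 were with a pseudocount of 5, TMM factors or centring, while 3 higher became 4, with Acod1, under TMM factors or centring. Nos2, Ass1, Slc7a2, Arg2, Gch1, Acod1 and Odc1 stayed at least 2-fold higher than at 0 h, at 2 h and 4 h, under every LPS alternative run.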

Other observations

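Levels per length were also computed for the LPS libraries from the recovered reads and the exonic lengths of GENCODE, and are set beside the AAV values as a description, since the tables were normalised separately. Acod1 was at 17.4 TPM at 0 h, 4244 TPM at 2 h and 9221 TPM at 4 h, against 1263 and 1248 TPM in the AAV-GFP samples. Nos2 was at 0.291, 162.5 and 1533 TPM, against 5.81 and 6.40 TPM with AAV-GFP. Ass1, at 6.32, 25.2 and 94.2 TPM, was below the 205 and 238 TPM of the AAV-GFP samples at all 3 times. Arg1 was at 0.320 TPM or less in the LPS libraries and at 12.36 to 28.94 TPM in the AAV samples. Virus, culture and processing cannot be told apart here, as no sample without virus was in the AAV table.

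Over 3 log2 differences (2 h and 4 h of LPS against 0 h, and AAV-Shisa3 minus AAV-GFP) among the 10532 genes kept in both tables, the genes nearest to Nos2 by Euclidean distance were Lipg (1.00), Saa3 (2.19), Edn1 (2.22), Ptgs2 (2.31) and Acod1 (3.25). At 0 h Lipg had 4 reads, Edn1 had 3 and Nos2 itself had 9, so these distances depend on the pseudocount. In the same order the AAV differences were 0.75, -0.83, 0.25, 0.67 and 0.66, against 0.38 for Nos2. Nearest to Acod1 were Ptgs2 (0.939), Shisa3 (1.06), Edn1 (1.12), Adora2a (1.25) and Ccl5 (1.32). Of these, Shisa3 had 1 read at 0 h and Edn1 and Adora2a had 3 each, so that their distances depend on the pseudocount. Shisa3 is the gene that AAV-Shisa3 delivers, so its AAV difference cannot be read as a response. In this order the AAV differences were 0.67, 0.63, 0.25, -0.33 and -0.10, against 0.66 for Acod1. Nearest to Odc1 were Nlrp3 (0.397), Arhgef3 (0.529), Cd14 (0.550), Trem1 (0.689) and Sowahc (0.696). These genes were picked on the 3 differences themselves, so their likeness to Nos2, Acod1 and Odc1 is fixed by the choice.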
